A study of Mus musculus with 8 samples.

Results

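The miR-200 family is a group of epithelial miRNAs, followed here in mouse liver and in purified liver mitochondria under 2 diets. The members were chosen by name: miR-200a-3p, miR-200a-5p, miR-200b-3p, miR-200b-5p, miR-200c-3p, miR-141-3p and miR-429-3p, 7 of the 862 miRNA names in the deposited tables. All 7 were found. Male wild-type C57BL/6J mice, 8 weeks old at the start and housed singly, spent 12 weeks on caloric restriction (CR) or with food ad libitum (AL). The CR mice received a diet restricted by 20% in the first week and by 40% in the other 11. Mitochondria (purified as mitoplasts, mitochondria without their outer membrane) gave 3 small RNA libraries from CR and 3 from AL livers. Whole liver gave 1 library from CR and 1 from AL livers, each an equal pool of 3 RNA samples, so that the pools have no replicate. Separate animals are not stated for the 3 mitochondrial libraries of a diet, so the p-values describe no more than the spread between libraries, which may be technical.

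The miR-200 family is best known for holding cells in an epithelial state. Its 3p arms repress the transcription factors ZEB1 and ZEB2, which in turn repress E-cadherin and the miR-200 genes themselves. In liver the family is associated with the bile duct epithelium more than with hepatocytes.

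The mature sequences show why the family falls into subgroups. They are given from RefSeq (5′ to 3′), with the seed, the bases 2 to 8 that pair with target mRNAs, in capitals. Each was identical to the sequence deposited beside the name.
miR-200b-3p: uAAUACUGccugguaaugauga
miR-200c-3p: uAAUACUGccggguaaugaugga
miR-429-3p: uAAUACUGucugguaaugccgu
miR-200a-3p: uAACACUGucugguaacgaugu
miR-141-3p: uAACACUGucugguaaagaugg
miR-200a-5p: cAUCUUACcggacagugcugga
miR-200b-5p: cAUCUUACugggcagcauugga
The first 3 share 1 seed and the next 2 another, and both 5p arms share one of their own. No other name in the tables carried any of these seeds. Counted from the 5′ end, miR-200b-3p and miR-200a-3p differ in the seed by U4C. Between subgroup partners the differences are few: miR-141-3p differs from miR-200a-3p by C17A and U22G, and miR-200c-3p from miR-200b-3p by U11G and A22G over the 22 positions they share. How the authors assigned reads with mismatches is not given in the sources used here, so the split of reads between these partners is uncertain.

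The 7 members come from 5 hairpins in 2 genomic clusters, and the hairpins are shown because reads of neighbours and of both arms are compared here. Arms annotated as mature miRNAs are in capitals (RefSeq, GRCm38.p6, a later build than the mm9 that the authors mapped to).
Mir200b, chr4:156055681-156055750, minus strand: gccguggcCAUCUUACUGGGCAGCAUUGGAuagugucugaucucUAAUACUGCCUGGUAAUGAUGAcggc
Mir200a, chr4:156054896-156054985, minus strand: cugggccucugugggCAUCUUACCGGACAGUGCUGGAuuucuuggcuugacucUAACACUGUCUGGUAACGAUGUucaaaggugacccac
Mir429, chr4:156053905-156053987, minus strand: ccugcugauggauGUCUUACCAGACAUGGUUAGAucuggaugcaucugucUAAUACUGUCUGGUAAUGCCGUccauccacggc
Mir200c, chr6:124718322-124718390, minus strand: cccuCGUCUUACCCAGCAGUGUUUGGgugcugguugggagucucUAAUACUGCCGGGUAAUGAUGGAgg
Mir141, chr6:124717914-124717985, minus strand: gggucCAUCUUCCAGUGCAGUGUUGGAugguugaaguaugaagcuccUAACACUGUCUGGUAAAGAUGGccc
The 3 chromosome 4 hairpins lie within 1846 bases, with 695 bases between Mir200b and Mir200a and 908 between Mir200a and Mir429. In GENCODE M21 they sit in introns of the protein-coding gene Ttll10 on the same strand, and Mir429 also overlaps an exon of the non-coding transcript Gm13648. The chromosome 6 pair lies 336 bases apart, in an intron of the non-coding gene Gm15884, between Phb2 and Ptpn6. Mir141 also overlaps an exon of an unconfirmed transcript, Gm29008.

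Values are reads per 1000000 (RPM) of all listed miRNA reads, and whole read numbers could be recovered from them. The mitochondrial libraries held 1070762 to 1577691 miRNA reads and the pools 3242002 (CR) and 2431564 (AL), so that 1 read was worth 0.308 to 0.934 RPM. Pearson's r between mitochondrial libraries on log2(RPM + 1) lay between 0.952 and 0.974. The hepatocyte miRNAs of a list of 8, led by miR-122, were all present in each library and took 608685 to 752185 RPM in mitochondria, against 590007 (CR) and 499116 RPM (AL) in whole liver. CR mitochondrial replicate 2 stood apart from the other mitochondrial libraries in more than 1 way. miR-122-5p took 251755 RPM there, against 378919 to 580803 RPM in the other mitochondrial libraries and 262739 (CR) and 254251 RPM (AL) in the pools. Of a list of 5 pancreas miRNAs 2 were high in it, miR-375-3p (63.4 RPM, at most 3.74 elsewhere) and miR-217-5p (33.0 RPM, at most 2.06 elsewhere). Results are given with and without this library where it matters.

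The family was a minor part of liver miRNA. The 7 members together reached 317, 510 and 290 RPM in CR mitochondria (replicates 1 to 3) and 427, 253 and 242 RPM in AL mitochondria. In whole liver they reached 791 RPM in the CR pool and 769 RPM in the AL pool, above each mitochondrial library. The means were 372 ± 120 RPM in CR mitochondria and 307 ± 104 RPM in AL mitochondria (SD, n = 3 each), a difference smaller than the spread between replicates. The number of epithelial cells and the amount of miRNA per cell cannot be told apart in such bulk samples. The mitochondrial libraries moreover sample only a part of the cell.

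A single member, miR-200a-3p, made up most of the family. It supplied 75.0% to 88.7% of the family's reads in the mitochondrial libraries, against 71.4% in the CR pool and 60.1% in the AL pool (95% Clopper-Pearson intervals 69.6% to 73.1% and 57.8% to 62.3%). miR-200b-3p came next. By group means, miR-200c-3p, miR-429-3p, miR-141-3p and the 5p arms lay below it in each group. The order of miR-200c-3p and miR-429-3p was not fixed: their mitochondrial ranges overlapped, miR-200c-3p was higher in the AL pool and miR-429-3p in the CR pool. Intervals on reads cover counting error only.

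The 3p arm dominated both hairpins whose arms are each members of the family, Mir200a and Mir200b. Of miR-200a reads, 98.4% to 100% were from the 3p arm in the mitochondrial libraries, against 99.1% in the CR pool and 99.0% in the AL pool. Of miR-200b reads, 93.8% to 100% were 3p in mitochondria, against 99.0% in the CR pool and 99.7% in the AL pool. The other 5p arms of the family were at the limit of detection: miR-141-5p had 0 to 3 reads per library, and miR-200c-5p and miR-429-5p were not among the names listed. In AL mitochondrial replicate 2 miR-141-5p had 3 reads beside 4 of miR-141-3p, so no dominant arm is stated for Mir141.

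**Figure D1:**
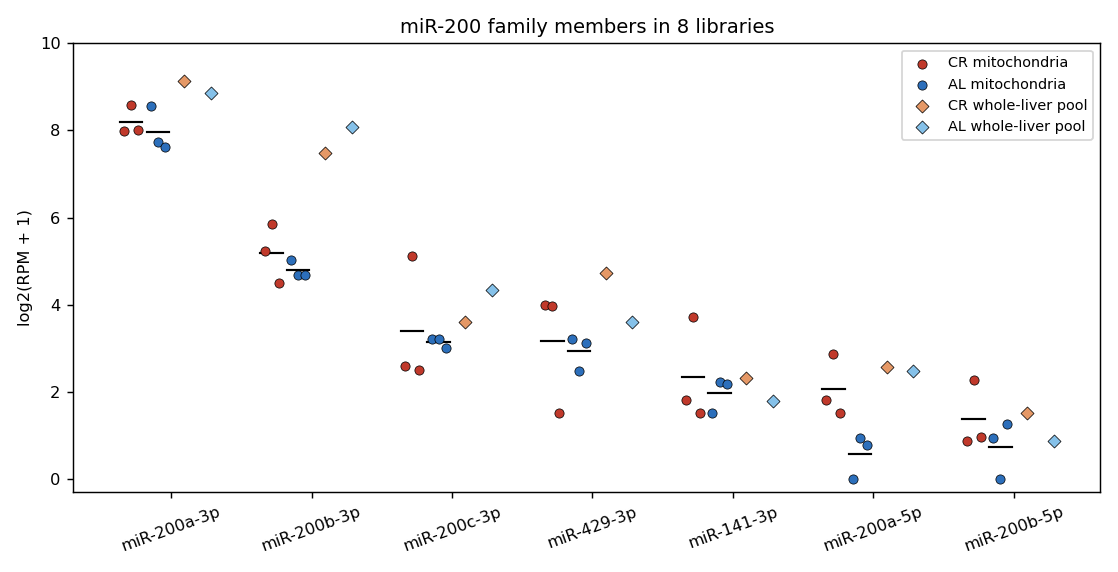
Level of each member on a log2(RPM + 1) scale, with 1 point per library (circles, mitochondria; diamonds, whole-liver pools) and black bars for means of 3. miR-200a-3p is highest in every library, and the 6 mitochondrial points of miR-200b-3p lie between 21.5 and 57.0 RPM, below 179 and 269 RPM in the pools.

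The comparison of fractions asked which of these miRNAs were represented in purified mitochondria to a different degree than in whole liver. miR-200b-3p was far lower in mitochondria. It measured 36.6, 57.0 and 21.5 RPM in CR mitochondria and 31.4, 24.7 and 24.6 RPM in AL mitochondria, against 179 RPM in the CR pool and 269 RPM in the AL pool. The highest mitochondrial value was thus below the lower pool. The log2 fold change, mitochondria over whole liver with diet as a term, was -2.79 (SE 0.40, limma-trend on log2(RPM + 1), adjusted p = 3.47e-05 over the 417 miRNAs tested), and 13 miRNAs had a lower value. With AL libraries alone it was -3.28 (adjusted p = 0.00359) and with CR libraries alone -2.30 (adjusted p = 0.00409). Both pools enter these fits as single libraries assumed to vary like the mitochondrial ones.

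miR-200a-3p, from the hairpin 695 bases away, was lower in mitochondria by much less. It measured 255, 382 and 258 RPM in CR mitochondria and 377, 211 and 197 RPM in AL mitochondria, against 564 RPM in the CR pool and 462 RPM in the AL pool. Again no mitochondrial library reached either pool. The log2 fold change was -0.91 (SE 0.34, limma-trend adjusted p = 0.0442). This call depended on the scale: with TMM factors, which trim extreme miRNAs when setting library sizes, the value was -0.48 (adjusted p = 0.228). The fold was similar with a single library left out, but the call was lost without CR replicate 1 (-0.86, adjusted p = 0.0734), CR replicate 3 (-0.87, 0.0756), AL replicate 2 (-0.86, 0.0736) or AL replicate 3 (-0.83, 0.103). On the deposited scale the median of all tested miRNAs was -0.31, and with TMM factors 0.01. Relative to that median miR-200a-3p stood at -0.61 and -0.49, and miR-200b-3p at -2.48 and -2.37.

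The unequal difference showed in the ratio of these neighbours within each library, a measure chosen after the values were seen and given without a test. There were 6.95, 6.70 and 12.0 reads of miR-200a-3p per read of miR-200b-3p in CR mitochondria and 12.0, 8.56 and 8.0 in AL mitochondria. The CR pool had 3.15 (95% exact interval 2.87 to 3.47) and the AL pool 1.72 (1.56 to 1.89). The lowest interval bound in a mitochondrial library was 5.06, so mitochondria and pools did not overlap in counting error. A ratio within a library does not depend on how libraries are scaled.

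**Figure D2:**
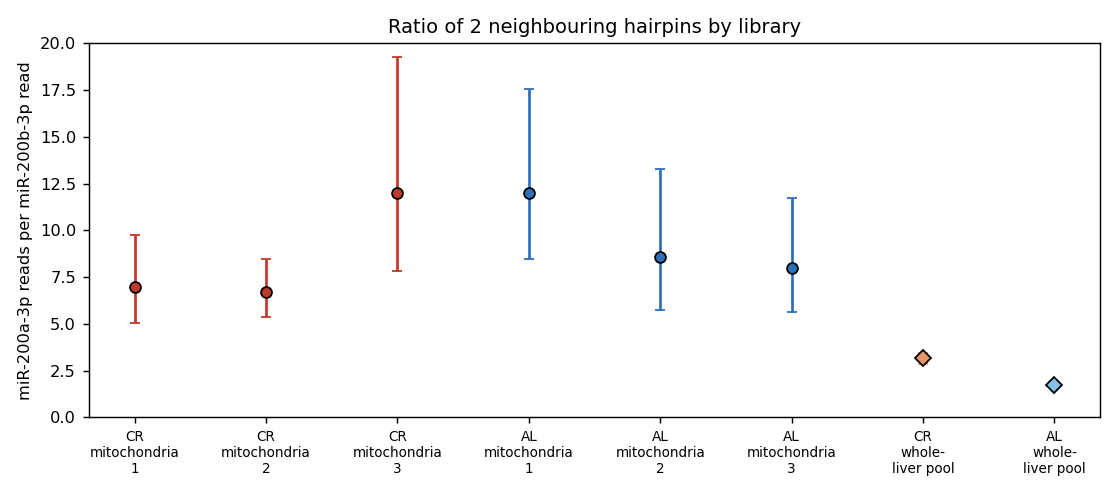
Reads of miR-200a-3p per read of miR-200b-3p in each library, with 95% exact intervals for counting error. The mitochondrial ratios lie between 6.70 and 12.0, above 3.15 in the CR pool and 1.72 in the AL pool.

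The other 3p members were less abundant and their differences less certain. miR-429-3p, which shares the seed of miR-200b-3p and the cluster of both, had a log2 fold change of -1.12 (SE 0.59, adjusted p = 0.160), with 15.0, 14.6 and 1.87 RPM in CR and 8.31, 4.57 and 7.73 RPM in AL mitochondria, against 25.6 RPM in the CR pool and 11.1 RPM in the AL pool. miR-200c-3p, which shares the seed of miR-200b-3p, had -0.70 (SE 0.59, adjusted p = 0.378). It measured 4.996, 33.6 and 4.67 RPM in CR mitochondria and 8.31, 8.22 and 7.03 RPM in AL mitochondria, against 11.1 RPM in the CR pool and 19.3 RPM in the AL pool. CR mitochondrial replicate 2 was the only mitochondrial library above a pool. Without it the value was -1.13 (SE 0.41) and passed the threshold (adjusted p = 0.0438).

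The remaining members rest on few reads. miR-141-3p had 3, 19 and 2 reads in CR and 2, 4 and 5 in AL mitochondria, against 13 in the CR pool and 6 in the AL pool, with a log2 fold change of 0.10 (SE 0.58) that turned to -0.22 without CR replicate 2. miR-200a-5p had -1.20 (SE 0.57, adjusted p = 0.118). miR-200b-5p, with at most 6 reads in any library, had -0.14 (SE 0.58), a sign that turned with TMM factors (0.09).

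In all, 2 of 7 tested members were lower in mitochondria and none higher by limma-trend, where 21.6% of all 417 miRNAs were called lower, 10.6% higher and 32.1% in either direction. The share of members called lower is thus near the background. On each of the scales that bring the median closer to 0 (TMM factors, DESeq2 size factors, miR-122 left out of the total) 1 of 7 was called, miR-200b-3p. The split of all calls moved with the scale, with 44 higher and 90 lower as deposited and 75 higher and 67 lower with TMM factors. For the same 2 members all mitochondrial libraries lay below both pools, as they did for 27.1% of all tested miRNAs. The median log2 fold change of the 7 members was -0.91, beside -0.31 over all tested.

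Some other epithelial miRNAs were also lower in mitochondria. Of a list of 10 (the miR-183, miR-96 and miR-182 cluster, miR-31, miR-203, miR-205, miR-375, miR-34b, miR-34c and miR-7a), 8 were tested. Of these 3 were lower in mitochondria, 0 were higher, and the median was -0.88. Over all 417 tested miRNAs 21.6% were called lower and 10.6% higher, with a median of -0.31. The calls for this and the following lists were made on the deposited scale alone. miR-203-3p, an epidermal differentiation miRNA, had -1.56 (adjusted p = 0.00190), miR-7a-5p -1.58 (0.00302) and miR-96-5p -1.35 (0.0301). The summed level of the list was 1866 to 3409 RPM in mitochondria, against 6831 RPM in the CR pool and 7042 RPM in the AL pool. Most of this sum was miR-7a-5p and miR-203-3p, both among the names called lower. They stood at 4426 and 1754 RPM in the CR pool and at 3890.5 and 2682 RPM in the AL pool. miR-205-5p and miR-34b-5p were at 0 to 2 reads in each mitochondrial library. The 6 leukocyte names summed to 2959 to 11012 RPM in mitochondria, against 710 RPM (CR) and 1029 RPM (AL) in whole liver, but 1 alone was called, miR-146a-5p (3.54, adjusted p = 7.16e-07), and the list's median was -0.56. Of the 5 mesenchymal and stellate cell names 1 was higher in mitochondria (miR-143-3p, 1.48) and 2 were lower (miR-145a-5p, -1.25, and miR-199a-5p, -1.59). Of the endothelial pair miR-126a-3p was lower (-1.08, adjusted p = 0.0424) and miR-126a-5p was not called, and of the 8 hepatocyte names 0 were called (median 0.02). Whether cell types differed between the fractions was not tested. Nor was the part of these list members' differences in the lower levels of miR-200b-3p and miR-200a-3p.

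**Figure D3:**
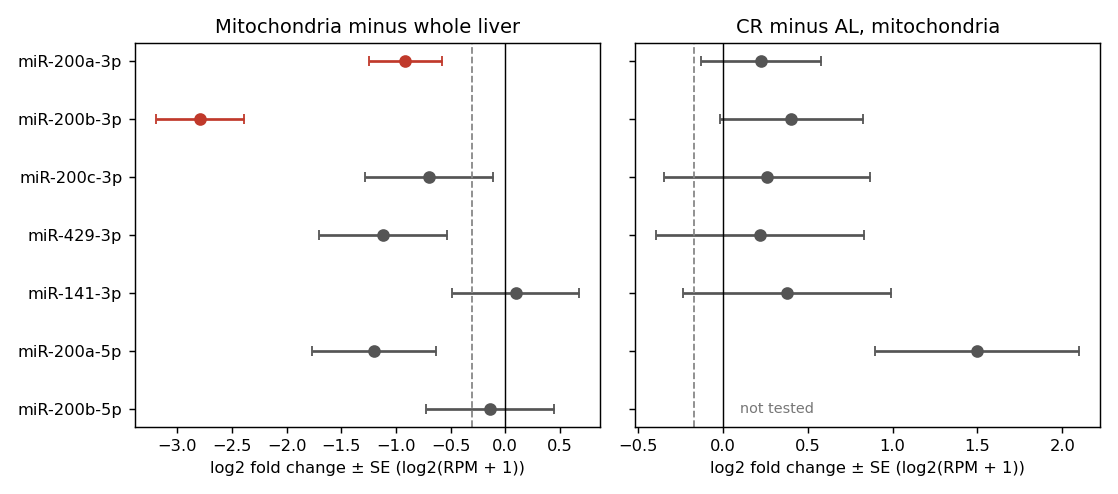
Log2 fold change ± SE of each member, mitochondria over whole liver on the left and CR over AL in mitochondria on the right (limma-trend on log2(RPM + 1); red, adjusted p under the threshold; dashed, median of all tested miRNAs). miR-200b-3p at -2.79 stands apart on the left, the call of miR-200a-3p at -0.91 is lost with TMM factors, and no member is called on the right.

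The main comparison of the series set CR against AL mitochondria. No member of the family passed it. miR-200b-5p was not tested, since it did not reach 1 RPM in 3 of the 6 libraries. Of the 6 tested members 0 were called by limma-trend or edgeR, where limma-trend called 0.512% of 391 miRNAs. In each, 1 member had an unadjusted p under 0.05, miR-200a-5p, which is treated below. DESeq2 called 0 of the 4 members to which it gave an adjusted p. It gave none to miR-141-3p and miR-200a-5p, and 0 of 6 had an unadjusted p under 0.05. Of all 391 miRNAs, 52 had an unadjusted p under 0.05 by limma-trend, 50 by edgeR and 41 by DESeq2. The log2 fold changes on log2(RPM + 1) were 0.23 (SE 0.35) for miR-200a-3p, 0.40 (SE 0.42) for miR-200b-3p, 0.26 (SE 0.61) for miR-200c-3p, 0.22 (SE 0.61) for miR-429-3p and 0.38 (SE 0.61) for miR-141-3p, with adjusted p of 0.724 to 0.922. Of the other epithelial names 0 of 8 tested were called either. The median of the 6 members was 0.32, beside -0.17 over all 391. That median includes miR-200a-5p (1.499). Without CR replicate 2, where 5 members were tested, the members' median was -0.18, with 3 of them below 0, beside -0.34 over all 360 tested. With DESeq2 size factors the medians were 0.50 for the members and 0.03 over all.

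The exception by size was miR-200a-5p, the minor arm of Mir200a. It had 3, 10 and 2 reads in CR mitochondria and 0, 1 and 1 in AL mitochondria. Each CR library was thus above each AL library, as the groups were apart, in either direction, for 19.4% of all tested miRNAs. The member passed the filter of 1 RPM in 3 libraries through the 3 CR libraries alone, since each AL value was under 1 RPM. The filter thus fixed this separation in advance, and it is no support for a difference. The levels were 3.57 ± 2.42 RPM in CR mitochondria and 0.539 ± 0.478 RPM in AL mitochondria (SD, n = 3 each), with all AL values under the level of 3 reads. The log2 fold change was 1.499 (SE 0.60, limma-trend unadjusted p = 0.0229, adjusted p = 0.299, and 0.0274 and 0.514 with no filter on low values). At these read numbers its size depended on the pseudocount and tool, with 0.60 at a pseudocount of 5 RPM and 2.88 in DESeq2. On the 15 and 2 reads of the groups the ratio was 7.02, with a 95% exact counting interval of 1.63 to 63.2. Of those 15 reads 10 came from CR replicate 2; the ratio of mean RPM was 6.62 with that library and 4.05 without it. Without any 1 of the CR libraries the member was below the filter and was not tested. In whole liver this arm had 16 reads in the CR pool and 11 in the AL pool.

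The values of the other members moved with single libraries, CR mitochondrial replicate 2 among them. On the deposited scale CR mitochondrial replicate 2 held the highest mitochondrial level of 6 of the 7 members, and only miR-429-3p was higher in CR replicate 1. The share of all miRNAs that were highest in that library was not computed, so this count is no result about the family. RPM is a share of all miRNA reads, so it also depends on the most abundant miRNA. miR-122-5p took 251755 RPM in CR replicate 2, against 378919 to 580803 RPM in the other mitochondrial libraries. The ranking of members is given on the deposited scale alone, and the part of miR-122-5p in it was not tested. miR-200c-3p reached 33.6 RPM in CR replicate 2 (53 reads), against 4.996 and 4.67 RPM in the other CR and 7.03 to 8.31 RPM in the AL mitochondria. miR-141-3p, its chromosome 6 partner, reached 12.0 RPM (19 reads), against 2.50 and 1.87 RPM in the other CR and 1.85 to 3.65 RPM in the AL mitochondria. The chromosome 6 pair thus supplied 8.96% of the family's reads in that library (95% exact interval 7.07% to 11.1%), against 2.25% to 4.69% in the other mitochondrial libraries. Without CR replicate 2 the log2 fold changes were -0.60 (SE 0.46) for miR-200c-3p, -0.30 (SE 0.57) for miR-141-3p and -0.18 (SE 0.68) for miR-429-3p. The sign of miR-429-3p also turned without CR replicate 1 (-0.20) and without AL replicate 2 (-0.012). Without CR replicate 2 the values of miR-200a-3p and miR-200b-3p were 0.035 and 0.070, and miR-200a-3p was also low without AL replicate 2 (0.10) and without AL replicate 3 (0.055). Without CR replicate 2 the log2 ratio of the family's mean sums was -0.02 in place of 0.28.

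The same library held the pancreas miRNAs named above. All 5 names of that list summed to 98.9 RPM in it, against 2.11 to 5.48 RPM in the other mitochondrial libraries and 2.47 (CR) and 6.99 RPM (AL) in the pools. miR-375-3p (100 reads) and miR-217-5p (52 reads) made up most of that sum. The miR-216 names were scarce, with 2 reads for each 5p arm and 0 for miR-216b-3p. The endothelial pair miR-126a-3p and miR-126a-5p was also highest there among mitochondria, at 18066 RPM in sum, against 6694 to 9437 RPM in the others. Their part in the levels of miR-200c-3p and miR-141-3p was not tested.

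**Figure D4:**
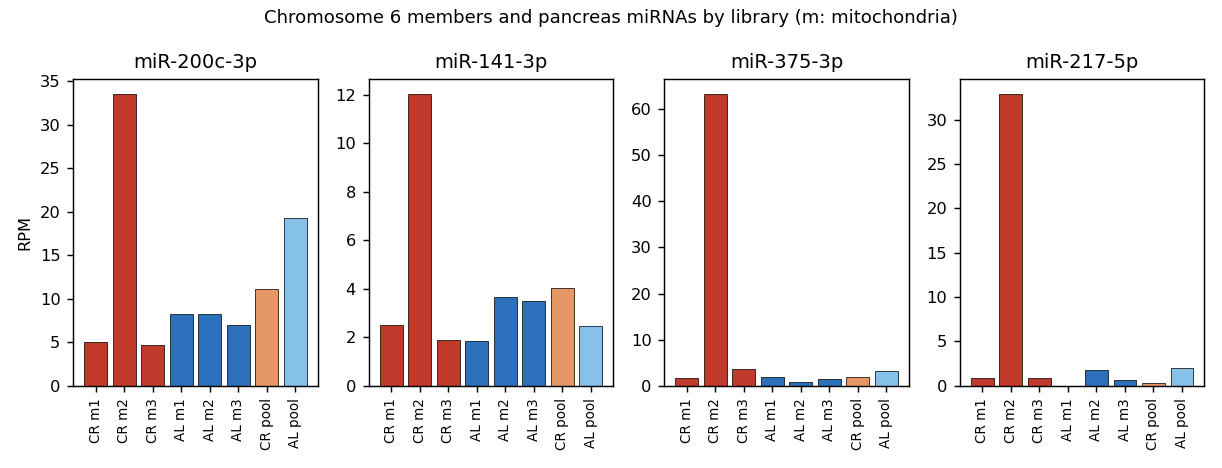
RPM of the chromosome 6 members miR-200c-3p and miR-141-3p and of the pancreas miRNAs miR-375-3p and miR-217-5p in each library; each panel has its own scale from 0. CR mitochondrial replicate 2 is highest in all 4 panels, at 33.6, 12.0, 63.4 and 33.0 RPM.

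Members varied together across the 6 mitochondrial libraries to different degrees. On log2(RPM + 1), Pearson's r was 0.93 for the chromosome 6 pair miR-200c-3p and miR-141-3p, 0.70 for miR-200a-3p with miR-200b-3p, 0.82 for miR-200b-3p with miR-429-3p and 0.38 for miR-200a-3p with miR-429-3p. Among pairs from different clusters r was between 0.30 (miR-200a-3p with miR-141-3p) and 0.80 (miR-200b-3p with miR-200c-3p). These r values describe 6 libraries that share their scale and include CR replicate 2. Of 222 other miRNAs averaging at least 10 RPM in mitochondria, those most like the mean of the 5 3p members were miR-32-5p (r = 0.92), miR-23b-3p (0.86), miR-664-3p (0.86), miR-15b-3p (0.84) and the endothelial miR-126a-3p (0.83), over 6 libraries. Each of the 5 was highest by RPM in CR replicate 2 among mitochondria. Over all 8 libraries r was 0.81, 0.86, 0.84, 0.29 and 0.90 in the same order.

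In whole liver the family did not move as a unit between the pools. With 1 pool per diet, the ratios compare 2 libraries and have no replicate check. miR-429-3p was at 25.6 RPM in the CR pool (83 reads) and 11.1 RPM in the AL pool (27 reads), a ratio of 2.31 (95% exact counting interval 1.48 to 3.70). miR-200a-3p was at 564 RPM in the CR pool and 462 RPM in the AL pool, a ratio of 1.22 (1.13 to 1.32). In the opposite direction, miR-200b-3p was at 179 RPM in the CR pool and 269 RPM in the AL pool, a ratio of 0.665 (0.594 to 0.745).

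The chromosome 4 neighbours thus had ratios on both sides of 1, and so did the members of the seed group AAUACUG. miR-200c-3p, of that seed, was at 11.1 RPM in the CR pool (36 reads) and 19.3 RPM in the AL pool (47 reads), a ratio of 0.574 (0.362 to 0.906). The interval included 1 for miR-141-3p (1.63, 0.576 to 5.21), miR-200a-5p (1.09, 0.475 to 2.60) and miR-200b-5p (2.25, 0.402 to 22.8). Of the 4 members with at least 10 RPM in a pool, 1 was at least 2-fold higher in the CR pool and 0 were at least 2-fold lower, beside 5.35% and 7.82% of 243 such miRNAs. The median log2 ratio of those 243 was -0.22.

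**Figure D5:**
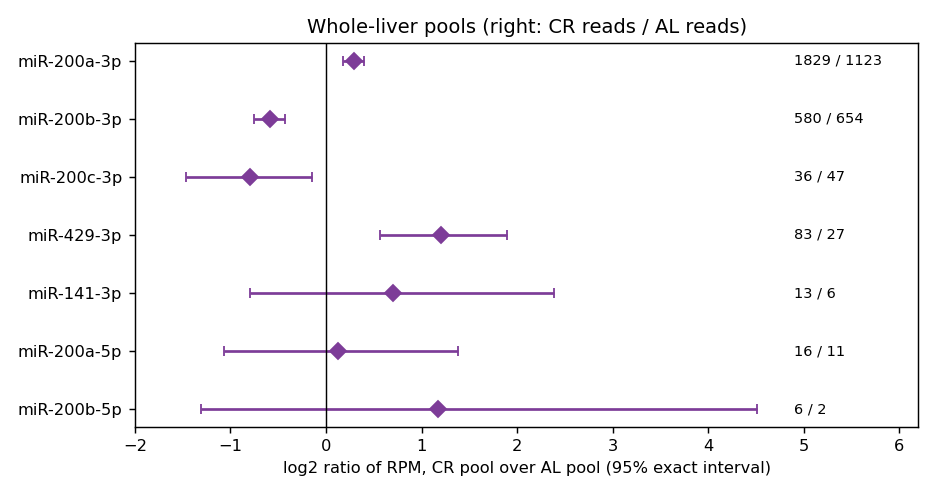
Log2 ratio of RPM, CR pool over AL pool, for each member with 95% exact counting intervals, and the reads behind it on the right. miR-429-3p (83 and 27 reads) and miR-200a-3p lie above 0, miR-200b-3p and miR-200c-3p below, and the other 3 intervals include 0.

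Whether the diet difference itself differed between mitochondria and whole liver was tested with an interaction term over all 8 libraries. None of the 7 members passed by limma-trend, edgeR or DESeq2, and none had an unadjusted p under 0.05 by any of them. The unadjusted limma-trend p ranged from 0.241 to 0.988. Of all 417 miRNAs 0% were called by limma-trend. With no filter on low values it called 71 higher and 58 lower of 862, with 0 members among them. The interaction rests on 1 pool per diet, and for miR-200b-3p its log2 standard error was 0.81.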

How the data were processed

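Small RNA libraries from mouse liver mitochondria (6) and whole-liver pools (2) were analysed. The deposited values are RPM, reads per 1000000 of the miRNA reads each table lists; the column names say tpm, but each of the authors' columns sums to 1000000 and holds whole multiples of its smallest value (100% within 0.01 read), so read counts were recovered from the deposited RPM by division. Reads were mapped with Bowtie to mm9, per the submitters' processing notes; version, mismatches, multiple hits and strand are not given in the sources used here. A missing name was taken as 0 and 3 reads as the floor.

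Each miRNA that reached 1 RPM in 3 or more of the fitted libraries entered limma-trend (limma 3.58.1 in R 4.3.3) as log2(RPM + 1), with Benjamini-Hochberg adjustment over all of them and a threshold of 0.05. Alternatives used other pseudocounts, filters and scalings, edgeR 4.0.16 and DESeq2 1.42.0 on the recovered reads, left-out replicates and a replicate block. On simulated data limma-trend was run with TMM factors, beside edgeR and DESeq2. The main fit, limma-trend on the deposited scale, was not run on simulated data. Python 3.11.15 (pandas 2.3.3, scipy 1.17.1, matplotlib 3.10.9) was used for the rest. Members, lists and tests were chosen with earlier results of these data known. Named miRNAs were the 7 members, other arms of their hairpins, list members that moved with a result, and the 5 miRNAs most like the mean of the 3p members (Pearson's r over 6 mitochondrial libraries, at least 10 RPM on average).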

Additional observations from a re-analysis of the deposited data

How the results depend on the processing

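The call of miR-200b-3p, lower in mitochondria than in whole liver, held under each of 18 alternatives (log2 fold change -3.28 to -2.30, adjusted p from 1.91e-09 to 0.00409). The number of members called in that comparison was 2, and 1 with no filter on low values, TMM factors, DESeq2 size factors, miR-122 left out of the total, edgeR, DESeq2, the replicate block, AL libraries alone or CR libraries alone; leaving out a mitochondrial replicate gave 1 to 3. In each of these settings with 1 call, it was miR-200a-3p that was lost (adjusted p of miR-200a-3p from 0.0132 to 0.274 over the 18). The replicate numbers were not shown to pair the libraries: the deviations of same-numbered libraries from their group means correlated at 0.36, 0.08 and 0.11, and CR replicate 3 correlated best with AL replicate 2 (0.22). With the replicate block miR-200a-3p had -0.72 (adjusted p = 0.182) and no member was called between the diets. Signs of members that were not called turned as follows. Without CR replicate 2 the diet log2 fold change was -0.30 for miR-141-3p, -0.60 for miR-200c-3p and -0.18 for miR-429-3p, and that of miR-429-3p was also -0.20 without CR replicate 1 and -0.012 without AL replicate 2. Without CR replicate 3 these signs did not turn, and the values were 0.79 for miR-141-3p, 0.71 for miR-200c-3p and 1.04 for miR-429-3p. Against whole liver miR-141-3p had -0.22 without CR replicate 2 and -0.40 with the replicate block. There miR-200b-5p had -0.14 in the main fit. Its sign turned with TMM factors (0.086), DESeq2 size factors (0.014) and miR-122 left out of the total (0.033). It also turned in edgeR (0.47), in DESeq2 (0.29) and without AL replicate 2 (0.034). Without AL replicate 1 it was -0.19, with the sign unchanged. The log2 ratio of summed RPM, CR over AL in mitochondria, was 0.28 and ranged from -0.02 to 0.59. In the pools the intervals of miR-200a-3p, miR-200b-3p, miR-200c-3p and miR-429-3p left out a ratio of 1. With DESeq2 size factors that of miR-200c-3p included it. These intervals cover counting error only. The share of all miRNAs whose interval leaves out 1 was not computed, so no result about the family is drawn from them. Depth limits miR-141-3p and both 5p arms, which had 0 to 19 reads in each mitochondrial library. The cause of these changes was not tested.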
